A study of Saccharomyces cerevisiae with 12 samples.

Results

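Transcript levels of Saccharomyces cerevisiae were described in the 3 libraries labelled wild type, out of 12 libraries in the study. The other libraries carry changes in RPD3 or SWI3 and were not used here. The wild type libraries, replicates 1, 9 and 17, come from strain S288c, the laboratory strain of the yeast reference genome. Cultures grew in synthetic defined medium to an optical density of 0.4 at harvest. Total RNA (600 ng) went into strand-specific libraries of polyadenylated RNA. A treatment text shared by all samples speaks of 20 mM caffeine for 4 h in some of them, while these 3 libraries carry the plain medium as growth condition. The design names triplicates, and the labels do not say whether the replicates were separate cultures, nor do they give mating type, ploidy or marker alleles.

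In a yeast cell growing fast on glucose, much of the messenger RNA is known to serve making ribosomes and fermenting sugar. Ribosomal protein genes and the genes for assembling ribosomes rise with growth rate, while stress genes under Msn2 and Msn4 and respiratory genes fall. Many yeast genes are kept as pairs from an ancient genome duplication, and the copies can be used very unequally. Levels here are TPM, a per-length measure: counts divided by the effective length of the target and scaled to the same total in every library, so TPM can be compared between genes within a library.

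The libraries held 23331634, 23916253 and 20154519 estimated counts over 6713 targets in replicates 1, 9 and 17, and 3 counts, taken as the floor of detection, stood for 0.129, 0.125 and 0.149 CPM (counts scaled to the same total per library). Replicate 1 stood apart. Over targets with a mean of at least 5 TPM, 163 were 2-fold apart between replicates 1 and 9, 210 between replicates 1 and 17, and 15 between replicates 9 and 17. The median absolute difference on the log2(TPM + 1) scale was 0.21, 0.22 and 0.08 for the same pairs. Each level is therefore given library by library, and where only a mean over 3 libraries is given it carries this spread. In RNA from whole cultures, fewer cells of a kind and less RNA per cell cannot be told apart.

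The cell type read from marker genes was alpha. The 5 alpha-cell genes summed to 4913, 4108 and 3998 TPM in replicates 1, 9 and 17, and the 7 a-cell genes to 13.3, 19.6 and 23.3 TPM. MF(ALPHA)1, which encodes the alpha-factor pheromone, stood at 1759, 1719 and 1732 TPM, and STE3, the receptor for a-factor, at 182.2, 185 and 170 TPM. The a-cell genes were low in every library, the highest being the a-factor exporter gene STE6 at 4.04 ± 0.37 TPM (SD, n = 3). The haploid genes STE4, STE18, STE5, FUS3 and GPA1 were all present, with means from 19.1 to 154 TPM. The 8 sporulation markers had means from 0.865 to 23.2 TPM. RPD3, the histone deacetylase gene changed elsewhere in the study, stood at 62.1, 71.2 and 72.8 TPM and SWI3, a subunit gene of the SWI/SNF remodeller, at 23.1, 27.6 and 29.97 TPM.

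No count was found in any library for 4 common yeast marker genes: URA3 (uracil synthesis), MET17 (sulfide incorporation into homocysteine), CAN1 (arginine permease) and LYP1 (lysine permease). For URA3 a count of 0 allows up to 0.143, 0.142 and 0.169 TPM in replicates 1, 9 and 17, a limit that covers counting error only. HIS3 (histidine synthesis) was present at 122, 131 and 149 TPM and LEU2 (leucine synthesis) at 687, 602 and 618 TPM. ADE2, of purine synthesis, stood at 115, 58.6 and 58.8 TPM, with replicate 1 above the other libraries.

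The pool was steep. Of 6713 targets, 216 had a mean of at least 1000 TPM, 1099 lay between 100 and 1000, 3957 between 10 and 100, 1014 between 1 and 10, and 222 above 0 but under 1, while 205 had no count in any library. The 161 most abundant targets held 50% of all TPM. The 10 most abundant held 10.9%, 11.2% and 11.6% in replicates 1, 9 and 17, and the 100 most abundant held 41.5%, 40.6% and 40.8%. Among the 20 most abundant targets the SD between libraries was between 1.28% and 21.0% of the mean.

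Among the 20 most abundant targets, 9 encode enzymes of glycolysis and fermentation, 6 encode ribosomal proteins of the small subunit, 2 encode cell wall mannoproteins, and 1 each encodes translation elongation factor 1 alpha, a small stress protein and an uncharacterized protein. TDH3, the main glyceraldehyde-3-phosphate dehydrogenase, led with 19660, 21491 and 23088 TPM. The second was CCW12, a cell wall mannoprotein, with 13382, 12174 and 12683 TPM, followed by the aldolase FBA1 with 11383, 12740.2 and 12652 TPM. ADH1, which reduces acetaldehyde to ethanol, had a mean of 10734 ± 1268 TPM and ENO2, an enolase, 10035 ± 909 TPM (SD, n = 3). All 9 glycolytic genes of this group were lower in replicate 1 than in both other libraries, and all 6 ribosomal protein genes were higher. For any target at 5 TPM or more, replicate 1 was above both others in 26.7% of cases and below both in 60.5%. TDH3 shares 43.2% of its 31-base words with other genes, TDH2 50.6% and TEF2 95.4%, so that the split of reads within those families is uncertain.

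**Figure D1:**
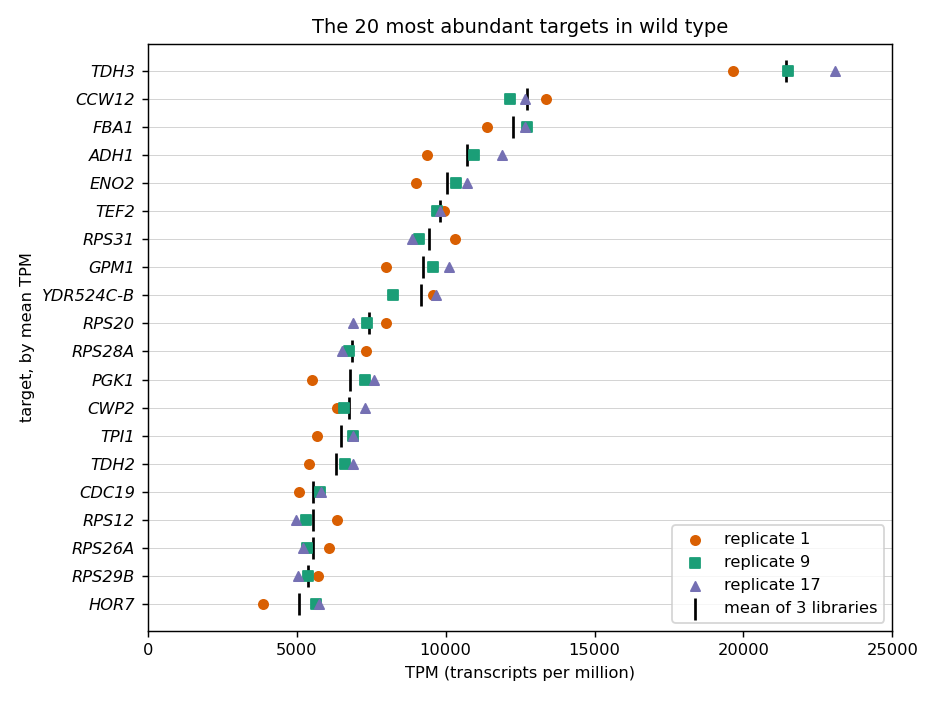
Level in TPM (horizontal axis, linear) of the 20 targets with the highest mean, with 1 point per wild type library and a bar at the mean. TDH3 stands apart at 19660 to 23088 TPM, and the 9 glycolytic genes have their lowest point in replicate 1.

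Ranked 9 was YDR524C-B, annotated as an uncharacterized protein, at 9596, 8233 and 9685 TPM, close to GPM1 (phosphoglycerate mutase) at 7998, 9576 and 10129.8 TPM. It lies on chromosome IV at 1489598 to 1489798, minus strand, in the R64 build, and none of its 31-base words occurs in another gene. Its 201-base coding sequence from RefSeq R64 is shown because a target of such level without an assigned function is rare in this list, with the start and stop codons in capitals.
YDR524C-B: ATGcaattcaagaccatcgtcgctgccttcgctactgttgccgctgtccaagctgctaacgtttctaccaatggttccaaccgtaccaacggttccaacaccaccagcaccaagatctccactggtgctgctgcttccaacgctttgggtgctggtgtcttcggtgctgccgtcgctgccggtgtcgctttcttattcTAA
Its estimated counts were 25860, 22361 and 22115, against 627751, 682078 and 611829 for TDH3. The high TPM rests on a short effective length: over all targets the effective length was between 0.261 and 1.42 times the target length in replicate 1, and the shortest targets were divided by the smallest lengths. HOR7, a small stress protein gene ranked last of the 20, had 3859, 5642 and 5764 TPM from 8874, 13078 and 11231 counts and is short in the same way.

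The 33 gene lists took 67.4% ± 0.97 of TPM (SD, n = 3), and 4862 targets in no list took the remaining 32.6%. Not every list is a function: the 687 targets not in the reference annotation (6.69%) and the transposon frames (0.204%) are counted among the lists. Genes of the cytosolic ribosome formed the largest list by share, with 29.1%, 25.6% and 24.5% in replicates 1, 9 and 17 for 137 genes. All 137 were above 0, 135 had a mean of at least 100 TPM and 103 of at least 1000 TPM. RPS31, whose product is a fusion of ubiquitin and a small-subunit protein, was the highest with 10313, 9097 and 8887 TPM. Translation factors took 3.57%, 3.14% and 3.05%, led by TEF2 at 9829 ± 126 TPM. The 133 genes of ribosome biogenesis, which act on ribosomal RNA and on assembly, took 0.861%, 0.518% and 0.497%, with a median gene at 22.9 TPM. Replicate 1 was the highest library in all 3 lists.

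Glycolysis and fermentation took 9.45%, 11.3% and 11.8% with 31 genes, of which 16 had a mean of at least 1000 TPM. The lowest of them was the enolase-related gene ERR3, at 0.074 TPM. Respiration took far less. The 38 nuclear genes of the respiratory chain and ATP synthase held 0.881%, 1.27% and 1.34%, led by the cytochrome oxidase subunit gene COX9 at 770 ± 145 TPM. The 25 genes of the citrate cycle held 0.351%, 0.505% and 0.529%, led by the isocitrate dehydrogenase subunit gene IDH2 at 567, 747 and 762 TPM. In these 3 energy lists replicate 1 was the lowest library.

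Chaperones took 3.43%, 3.12% and 3.30%, led by SSA2, a cytosolic Hsp70, at 3526, 3364 and 3635 TPM. Cell wall proteins and enzymes took 3.33%, 3.21% and 3.37%, most of it in CCW12 and CWP2, also a mannoprotein, at 6753 ± 503 TPM. General stress proteins took 1.72%, 2.35% and 2.48%, with replicate 1 below the others, and antioxidant enzymes 1.36%, 1.49% and 1.55%, led by the peroxiredoxin TSA1 at 2641 ± 164 TPM. Enzymes of amino acid synthesis held 1.66%, 1.82% and 1.88%. The lysine gene LYS9 led them at 1032, 1033 and 1053 TPM, and MET17 was at 0. Histones held 1.20%, 0.993% and 0.943%.

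The list with the smallest relative spread between libraries was the proteasome, the protease complex for ubiquitin-marked proteins, at 0.727%, 0.723% and 0.732%. All 33 of its genes lay between 101 TPM (RPN1) and 402 TPM (SEM1), so the levels of the subunits spanned a narrow range. At the other end, the 50 genes of meiosis and sporulation held 0.241%, 0.253% and 0.288%, nearly all of it in 1 gene, SPO24, at 2218, 2281 and 2632 TPM. The second gene of that list, the spore wall kinase gene SMK1, stood at 23.2 TPM, and the list's median was 2.65 TPM. Iron uptake held 0.089%, 0.086% and 0.096%, and the 22 thiamine genes 0.043%, 0.039% and 0.038%, with the acid phosphatase gene PHO3 as their highest at 230, 163 and 153 TPM.

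**Figure D2:**
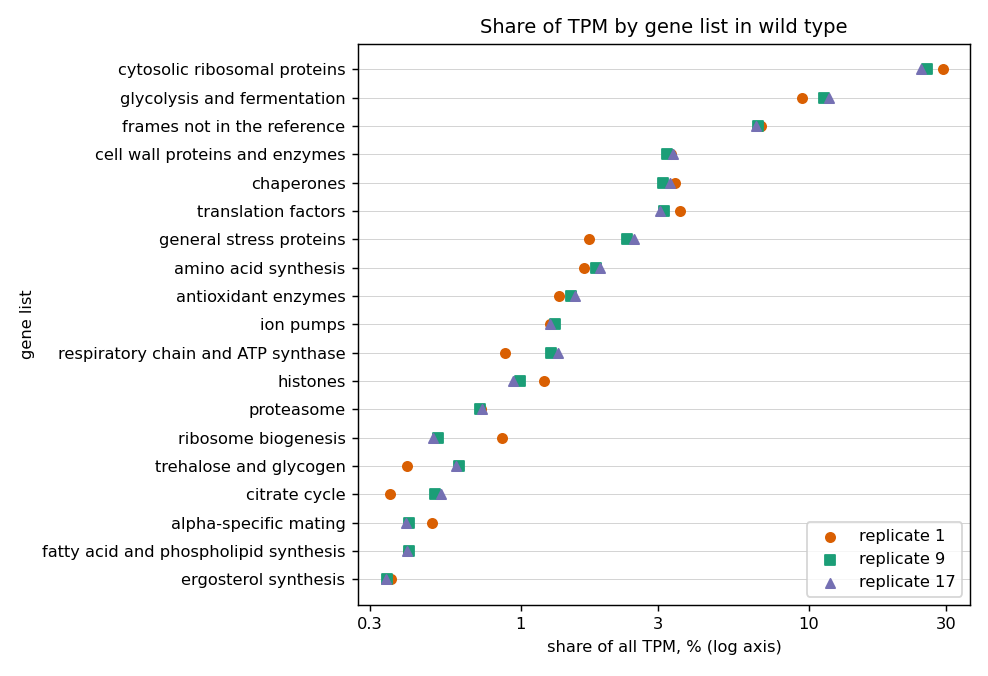
Share of all TPM in percent (horizontal axis, log scale) for each gene list with a mean of at least 0.3%, with 1 point per wild type library. Ribosomal proteins lead at 24.5% to 29.1%, and replicate 1 lies apart from replicates 9 and 17 for ribosome biogenesis, general stress proteins, respiration and the citrate cycle.

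How targets were defined changed some of these levels. Of the 282 genes with an intron, 281 had a target as long as the whole gene, intron included, so that their TPM was divided by too long a length for a spliced transcript. The 89 ribosomal protein genes with an intron had a median of 1244 TPM and the 48 without an intron 2958 TPM. With the coding length in place of the whole span the medians were 2205 and 2658 TPM, and the share of the ribosomal proteins rose from 26.4% to 33.2%. RPL39, the gene of a very small large-subunit protein, shows the layout. Its intron starts and ends as printed here from RefSeq R64, plus strand, at chrX:75929-75958 and chrX:76305-76334, with the first 6 and last 3 bases of the intron in capitals.
RPL39 start of intron: caacatggctGTATGTtagaaagatattat
RPL39 end of intron: tatgtttcccttttaatTAGgctcaaaagt

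The 687 targets not in the reference annotation, already counted among the gene lists, took 6.82%, 6.67% and 6.57% of TPM. Of these, 532 could be placed at 1 position in the genome, and 389 lay on the opposite strand of an annotated gene and took 4.56%, 4.54% and 4.45%. Of the 20 most abundant placed frames, 16 lay opposite a gene and 10 of the 20 lay on a ribosomal protein gene. Without a known strand setting, reads of a gene and of a frame opposite to it cannot be told apart.

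This was plain for RPL39, RPL43A and RPL28. RPL39 stood at 11.2, 21.9 and 22.8 TPM, while YJL188C on its opposite strand stood at 4403, 3725 and 3568 TPM. RPL43A had a mean of 43.2 TPM and the frame YPR044C opposite to it 4781 TPM. RPL28 had 628 TPM and the frame YGL102C opposite to it 3882 TPM. With the frames counted with the gene, the means of RPL39, RPL43A and RPL28 were 2245, 2305 and 2319 TPM, near those of other ribosomal protein genes. GPM1 rose from 9235 to 12429.9 TPM and CDC19, the main pyruvate kinase gene, from 5566 to 7010.2 TPM in the same way. The share of the ribosomal proteins, 26.4% as deposited, was 28.2% with the frames counted in and 35.7% with coding lengths used as well.

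Of 147 paralog pairs, 62 (42.2%) were at least 2-fold apart the same way in every library and 22 at least 10-fold. In families larger than a pair, every gene was set against the highest, so that a top gene such as PDC1 enters several pairs. Pairs outside the ribosomal proteins came from a chosen list, so these shares are not rates over all paralogs. The same copy was the higher in all 3 libraries for 136 pairs. The 59 ribosomal protein pairs were closer, with 15 (25.4%) at least 2-fold apart and a median ratio of 1.62, against 47 of 88 (53.4%) and 2.53 for the other pairs. The spread of a pair's log2 ratio between libraries was small beside these ratios, with a median SD of 0.13 over all pairs. Since genes of a pair are alike, pairs that share many 31-base words are uncertain, and among the 82 pairs with at most 5% shared words 43 (52.4%) were at least 2-fold apart.

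The largest gaps were in sugar metabolism. PDC1, the main pyruvate decarboxylase, stood at 4722, 4885 and 5183 TPM and its copy PDC6 at 0.816, 0.593 and 0.837 TPM, a log2 ratio of 12.70 ± 0.27 (SD, n = 3). PDC5, the other decarboxylase, stood at 9.28, 10.7 and 10.8 TPM. ADH1 exceeded ADH2, the glucose-repressed enzyme that oxidizes ethanol, by 10.78 ± 0.10 on the log2 scale. GPM1 exceeded GPM3 and GPM2 by 7.48 ± 0.12 and 7.25 ± 0.37. CDC19 exceeded PYK2, its glucose-repressed copy, by 6.75 ± 0.08. In each of these families 1 gene held nearly all of the level in every library.

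Other enzymes of the pathway were less one-sided. TDH3 was 3.40-fold above TDH2 and 8.25-fold above TDH1, ENO2 was 2.49-fold above ENO1, and the glucokinase gene GLK1 was 2.34-fold above EMI2. The hexokinase pair changed order between libraries. HXK2, the hexokinase of growth on high glucose, stood at 1216, 1340 and 1313 TPM in replicates 1, 9 and 17, while HXK1, known to be glucose-repressed, stood at 728, 1912 and 2120.3 TPM. HXK1 was thus the lower copy in replicate 1 and the higher copy in replicates 9 and 17.

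Outside sugar metabolism, PMA1, the plasma membrane proton pump, exceeded PMA2 by 8.71 ± 0.04 (log2), and YEF3, elongation factor 3, exceeded HEF3 by 7.76 ± 0.60. The peroxiredoxin TSA1 exceeded TSA2 by 5.68 ± 0.51. Of the Hsp70 genes, SSA4 stood at 717, 618 and 819 TPM and SSA3 at 25.1, 25.5 and 29.7 TPM, while SSA2 was 1.31-fold above SSA1. SSB1 stood at 1277, 946 and 877 TPM and SSB2 at 1191, 947 and 904 TPM, so that SSB2 was the higher copy in replicates 9 and 17. SSA2 and SSA1 share up to 63.9% of their words and SSB1 and SSB2 up to 57.9%, so the split within each pair is uncertain. The Hsp90 genes HSP82 and HSC82 were level at 1505 and 1486 TPM. HSC82 is known as the constitutive and HSP82 as the heat-induced copy. Histone copies were within 2.09-fold, the largest ratio being HHT2 over HHT1 for histone H3. The metallothionein genes CUP1-1 and CUP1-2, which share all of their words, and RPL41A and RPL41B, which share 81.3%, were equal in every library and cannot be separated.

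Among ribosomal proteins the A copy was higher in 34 pairs and the B copy in 24, the same copy leading in all 3 libraries, and RPL41A and RPL41B were equal. RPL15A stood at 5296, 4989 and 4540.4 TPM against 94.7, 106 and 106 TPM for RPL15B, a 48.3-fold ratio. RPS9B was 11.5-fold above RPS9A and RPL7A 10.0-fold above RPL7B. Counting frames with their gene and using coding lengths, both added after the data were seen, left RPL15A at 48.3-fold and RPS9B at 10.7-fold, and took RPL7A to 4.72-fold. RPL43B over RPL43A, 16.7-fold as deposited, turned round to 0.260-fold, and RPL22A over RPL22B went from 1.52-fold to 8.67-fold. The order also turned for RPP1A over RPP1B, from 1.92-fold to 0.989-fold, and for RPS11A over RPS11B, from 1.11-fold to 0.919-fold, which made 3 of the 59 pairs. RPL33A over RPL33B went from 1.60-fold to 4.11-fold and RPS22A over RPS22B from 7.57-fold to 3.40-fold. RPL20A and RPL20B (1.03-fold) and RPS1B and RPS1A (1.04-fold) were the closest pairs that could be separated.

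**Figure D3:**
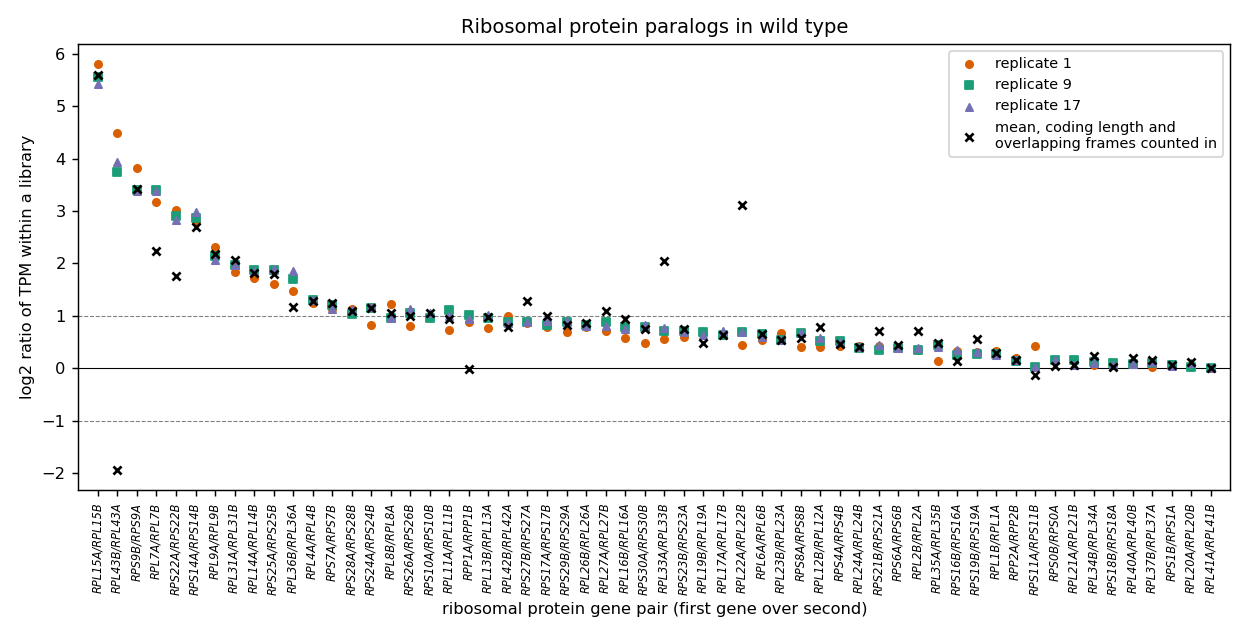
Log2 ratio of TPM within each library (vertical axis) for 58 of the 59 ribosomal protein pairs, ordered by mean ratio, with 1 point per wild type library, a cross for the mean ratio with coding lengths and overlapping frames counted in, and dashed lines at 2-fold. RPL15A over RPL15B is widest at 5.60, and the crosses lie farthest from the points for RPL43B over RPL43A and RPL22A over RPL22B, with wide gaps also for RPL33A, RPS22A, RPL7A and RPP1A over their copies.

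Silent genes were few among annotated nuclear genes. Of the 205 targets at 0 in every library, 105 were frames outside the reference and 40 were among the 91 transposon frames, whose copies are nearly identical. Of 28 mitochondrially encoded targets 20 were at 0, and the highest, VAR1, had 1.39 TPM. Mitochondrial transcripts of yeast are known to lack poly(A) tails and these were poly(A) libraries. Of 5488 nuclear genes with at most 5% shared words, 32 (0.583%) had no count in any library and 58 (1.06%) had under 3 counts in each.

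Those 32 genes were short, with a median length of 153 bases, and 22 were annotated as uncharacterized. For short targets a count of 0 does not exclude a low level. It allows up to 1.61, 1.59 and 1.90 TPM in replicates 1, 9 and 17 for YDR194W-A, of 153 bases. For YAL037C-A, of 93 bases, it allows 2.66, 2.64 and 3.14 TPM. Beside URA3, MET17, CAN1 and LYP1, they included HMRA1, the a1 gene of the silent mating-type cassette HMR, and DID2, a gene of endosomal sorting. A count of 0 here is that of the target alone, and frames overlapping a gene were not counted in. YLR302C, numbered next to MET17 on chromosome XII, was at 0 too. Among the lists, HXT16, a minor hexose transporter gene with 96.3% shared words, was also at 0. LDS1, of the spore coat, had 0, 0 and 0.049 TPM, the lowest level of the meiosis and sporulation list. Of the 32 genes, 3 lay within 20 kb of a chromosome end.

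Levels were lower near chromosome ends, the regions where silencing by Sir proteins is known to act. Among genes with at most 5% shared words, the 108 genes within 20 kb of an end had medians of 12.4, 13.9 and 13.6 TPM in replicates 1, 9 and 17, and the 5380 genes farther in had 31.04, 32.9 and 32.6 TPM. Under 1 TPM were 10.2% of the former and 2.14% of the latter. The 11 genes within 5 kb had medians of 2.29, 4.64 and 4.78 TPM, and the 4208 genes over 100 kb from an end 32.3, 33.6 and 33.3 TPM. Some genes near ends were strongly used. HXK1, 15.1 kb from an end, had a mean of 1587 TPM, the peroxidase gene HYR1 344 TPM, the lysine gene LYS1 331 TPM, COX14 297.1 TPM and CHA1, which breaks down serine and threonine, 292 TPM.

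**Figure D4:**
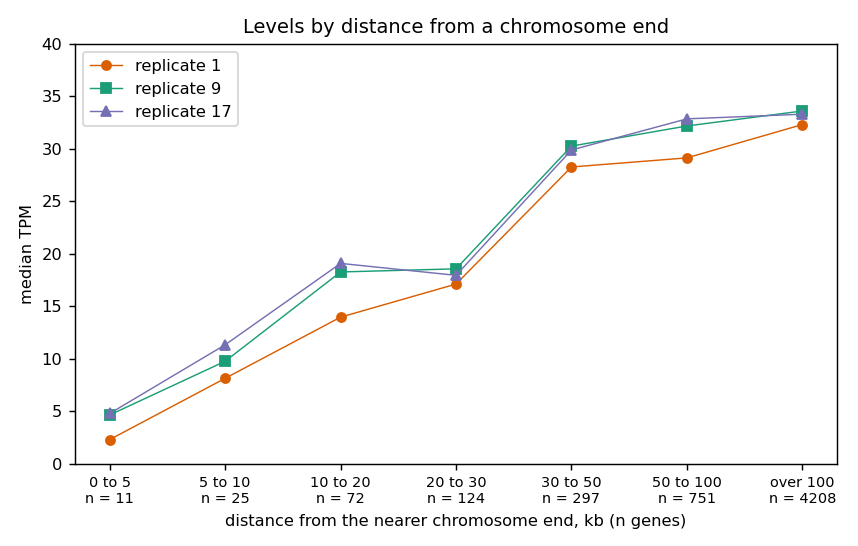
Median TPM (vertical axis) of genes with at most 5% shared words in classes of distance in kb from the nearer chromosome end (horizontal axis, classes of unequal width, n genes below each), with 1 line per wild type library joining the classes. Medians lie between 2.29 and 4.78 TPM in the outermost class and between 32.3 and 33.6 TPM beyond 100 kb.

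Across about 5600 nuclear genes outside the ribosomal protein and transposon lists, level went with gene structure. The rank correlation of mean TPM was -0.31 with coding length (Pearson -0.23, n = 5591), 0.28 with GC percent (Pearson 0.24, n = 5600) and 0.39 with codon use (Pearson 0.51, n = 5591), where codon use is likeness to the codons of ribosomal protein genes on a scale up to 1. Genes of 1 genome are not independent, and TPM itself depends on length through the effective length, so these are descriptions. Among the 560 genes with the highest level the median was 377 TPM, the coding length 792 bases, GC 42.0% and codon use 0.329. In the class of 560 genes next to the lowest one the median was 10.4 TPM, the coding length 1899 bases, GC 38.3% and codon use 0.181. The lowest class, at 4.37 TPM, broke the order in length and GC, with a median coding length of 1271 bases and GC 39.6%, and its codon use was 0.181.

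Replicate 1 departed from the other wild type libraries in named groups of genes. Among 5807 targets with a mean of at least 5 TPM, 95 (1.64%) were at least 2-fold above both other libraries on the log2(TPM + 1) scale and 45 (0.775%) at least 2-fold below both. The balance depended on the scaling and the fold: with TMM or DESeq2 scaling the counts were 124 above and 30 below, and at 1.5-fold they were 242 above and 257 below. For replicate 9 the counts were 2 (0.0344%) and 3 (0.0517%), and for replicate 17 they were 1 (0.0172%) and 4 (0.0689%). The libraries carry the same strain, medium and harvest density in the labels, and the depth of replicate 1 lay between the other depths. The cause of the departure was not tested. Without replicate 9, 90 targets were at least 2-fold lower in replicate 1 than in replicate 17, and without replicate 17, 54 were lower than in replicate 9. With 1 library on one side, no test was made. The median target was at -0.12 in replicate 1 against the mean of the others (log2), and list medians below are to be read against that value.

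Ribosome biogenesis stood highest in replicate 1. Of its 130 tested genes, 33 (25.4%) were at least 2-fold above both other libraries and none was 2-fold below. By any amount, 116 were above both. Of all targets tested, 1.64% were at least 2-fold above both and 26.7% were above both by any amount. The list's median was 0.71 on the log2 scale. NOP7, which acts in assembly of the large subunit, stood at 109 TPM in replicate 1 and 26.1 and 20.6 TPM in replicates 9 and 17. LTV1, of small subunit export, stood at 36.0, 8.55 and 7.22 TPM, and the helicase gene DBP2 at 88.8, 26.7 and 22.5 TPM. For each, replicate 1 lay far outside the range of the other libraries. Ribosomal proteins had a median of 0.24 with 128 of 137 genes above both others, and translation factors 0.30 with 32 of 39, and in neither list was a gene 2-fold above or below.

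The regions before these genes hold a common word. The PAC core, GATGAG, known from promoters of ribosome biogenesis genes and searched on both strands from 300 to 51 bases before the start codon, occurred in 66 of the 89 annotated genes in which replicate 1 was 2-fold above (74.2%) and in 1067 of all 6006 promoters (17.8%). In the ribosome biogenesis list itself it occurred in 86.5%. The RRPE core, AAATTTT, occurred in 61.8% of the 89 and 22.2% of all. The windows of NOP7, chrVII:695117-695366 on the plus strand, and LTV1, chrXI:176481-176730 on the plus strand, are shown from RefSeq R64 because these genes departed farthest in the list, with PAC cores in capitals; in NOP7 3 of them overlap.
NOP7: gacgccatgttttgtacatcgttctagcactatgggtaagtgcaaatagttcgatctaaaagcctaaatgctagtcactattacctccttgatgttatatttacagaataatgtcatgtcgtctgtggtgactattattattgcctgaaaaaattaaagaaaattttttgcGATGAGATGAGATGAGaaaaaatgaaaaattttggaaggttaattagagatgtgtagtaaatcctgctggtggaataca
LTV1: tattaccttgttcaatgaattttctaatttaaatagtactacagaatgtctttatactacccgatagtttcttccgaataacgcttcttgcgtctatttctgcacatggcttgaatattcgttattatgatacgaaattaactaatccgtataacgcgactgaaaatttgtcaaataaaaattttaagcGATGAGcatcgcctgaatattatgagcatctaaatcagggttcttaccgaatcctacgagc

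Genes of other roles were high in replicate 1 as well. MNC1 was the farthest above, at 275 TPM against 39.0 and 42.5 TPM, a 6.35-fold distance from the nearer library. ADE17, of the last steps of purine synthesis, stood at 302, 68.2 and 57.6 TPM, and SHM2, the cytosolic serine hydroxymethyltransferase, at 416, 127 and 126 TPM. Of the 52 chaperone genes tested 3 (5.77%) were at least 2-fold above both other libraries, where 1.64% of all targets were. BTN2, which sorts aggregated proteins, stood at 983, 236 and 224 TPM, APJ1, an Hsp40, at 50.4, 12.1 and 10.4 TPM, and FES1, an exchange factor of Hsp70, at 602, 277 and 253 TPM. The chaperone list as a whole had a median of 0.08.

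Among glucose transporters the libraries differed in both directions. HXT2 stood at 278 TPM in replicate 1 against 63.0 and 71.1 TPM, and HXT1, the low-affinity carrier, at 85.6 against 27.9 and 32.8 TPM. HXT6, a high-affinity carrier with a near-identical copy, stood at 90.3 against 230 and 192 TPM, and HXT4 at 269 against 522 and 535 TPM. The desaturase gene OLE1 was also high in replicate 1, at 94.5, 32.5 and 28.4 TPM. The acid phosphatase genes PHO12, PHO11 and PHO5 were above both others by 3.90-fold, 2.65-fold and 2.22-fold, with 91.6%, 92.6% and 19.8% shared words.

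General stress proteins stood lowest in replicate 1. Of 30 tested genes, 5 (16.7%) were at least 2-fold below both other libraries and none was 2-fold above. By any amount, 28 were below both, with a list median of -0.74. Of all targets tested, 0.775% were at least 2-fold below both and 60.5% were below both by any amount. HSP12, a small membrane-associated stress protein gene, stood at 123, 542 and 754 TPM, and DDR2, another Msn2 and Msn4 target, at 154, 571 and 685 TPM. MPC3, a subunit of the mitochondrial pyruvate carrier, stood at 15.0, 48.5 and 72.2 TPM. EGO4, in no list, stood at 357, 1286 and 1547 TPM. In each, replicate 1 was below both other libraries, which lay closer to each other than to it.

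Many respiratory genes were also low in replicate 1. In the trehalose and glycogen list 14 of 20 genes were below both other libraries and 3 were above both, where 60.5% of all targets were below both. At least 2-fold below were 3 of the 20 (15%), where the share of all targets was 0.775%. The list's median was -0.40. GPH1, which breaks down glycogen, stood at 153 TPM against 391 and 406 TPM, and the catalase gene CTT1 at 49.8 against 130 and 132 TPM. For the respiratory chain and ATP synthase the median was -0.58, with 36 of 37 genes below both other libraries. At least 2-fold below were 3 of the 37 (8.11%). INH1, the inhibitor of the ATP synthase, stood at 135, 330 and 353 TPM. The citrate cycle had a median of -0.47 and 22 of 24 genes below both, with SDH1, of succinate dehydrogenase, at 47.3, 108 and 128 TPM. The invertase gene SUC2 stood at 50.1, 129 and 134 TPM. All 15 cyclin and cell cycle control genes were below both others, none by 2-fold, with a median of -0.39.

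The stress response element AGGGG, the known binding site of Msn2 and Msn4, occurred on either strand of the same window in 48.6% of the 37 annotated genes in which replicate 1 was 2-fold below, in 74.2% of the general stress list and in 19.2% of all promoters. The PAC core occurred in 8.11% of the 37. The windows of HSP12, chrVI:106956-107205 on the plus strand, and DDR2, chrXV:231806-232055 on the minus strand, are shown from RefSeq R64 because these genes departed farthest in the list, with the elements in capitals, here read as CCCCT on the coding strand.
HSP12: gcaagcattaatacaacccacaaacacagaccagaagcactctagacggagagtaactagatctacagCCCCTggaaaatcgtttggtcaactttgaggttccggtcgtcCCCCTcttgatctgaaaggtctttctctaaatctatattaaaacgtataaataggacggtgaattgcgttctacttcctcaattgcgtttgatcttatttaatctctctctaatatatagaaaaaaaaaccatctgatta
DDR2: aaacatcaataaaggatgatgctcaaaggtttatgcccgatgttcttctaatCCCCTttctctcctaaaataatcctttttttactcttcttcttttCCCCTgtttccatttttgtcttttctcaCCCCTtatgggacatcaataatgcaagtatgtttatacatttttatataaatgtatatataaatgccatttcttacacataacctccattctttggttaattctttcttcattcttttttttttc
A match is a description of these letters and not a measured binding site.

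**Figure D5:**
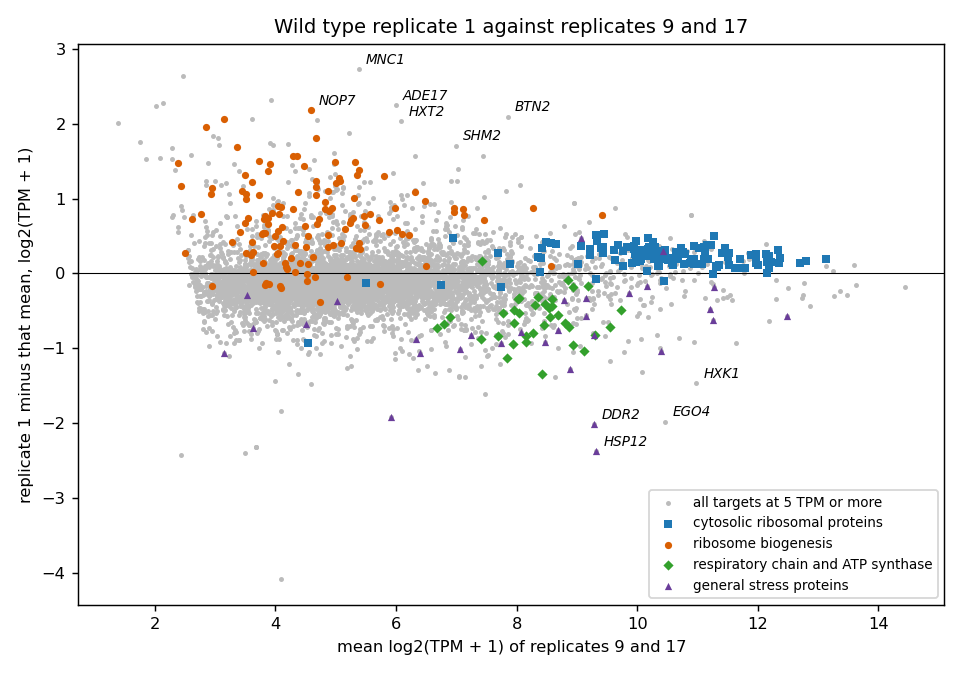
Difference of replicate 1 from the mean of replicates 9 and 17 on the log2(TPM + 1) scale (vertical axis) against that mean (horizontal axis) for 5807 targets, with 4 gene lists in colour and named genes labelled. Ribosome biogenesis genes lie above 0 with a median of 0.71, ribosomal proteins slightly above with 0.24, and general stress and respiratory genes below with -0.74 and -0.58.

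Some targets farthest below in replicate 1 rest on reads that fit several places. CPP2, listed at 0.00096, 11.2 and 22.7 TPM, and PAU9, a seripauperin gene at 1.14, 10.9 and 9.77 TPM, share all of their words with other genes. Replicates 9 and 17 had few departures of their own. SPL2, of phosphate uptake control, was lowest in replicate 17 with 17.3, 8.78 and 2.78 TPM in replicates 1, 9 and 17. The uncharacterized gene YER053C-A was highest in replicate 9 with 107, 219 and 104 TPM.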

How the data were processed

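The wild type libraries of strain S288c were made from poly(A) RNA with a stranded kit, per the labels' protocols. Per the submitters' processing notes, Trimmomatic 0.36 trimmed the reads and kallisto 0.44.0 assigned them, with R64 as the build. Options of kallisto for strand, bias and fragments: not given in the sources used here. Per the file headers, each deposited table lists 6713 targets with an estimated count and a TPM. Length and effective length, a signal in bases here, stand beside them per the file headers. The deposited TPM values were used as they stand, and they sum to 1000000 in each library.

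Positions, introns, sequences and products came from RefSeq R64, which matched 6026 targets. Ambiguity was gauged by the percentage of 31-base words that a gene has in common with other annotated genes. A target departed in a library when its log2(TPM + 1) lay at least 2-fold beyond the nearer of the other libraries, among targets with a mean of at least 5 TPM. This rule was tried on simulated libraries with 200 changed targets. It recovered 99% of the 3-fold and 100% of the 4-fold changes, with 0 unchanged targets called. Changes near 2-fold or near 5 TPM were not simulated. The spread between simulated libraries was a fixed setting, not taken from the data. With 1 group nothing was tested: a sign permutation over 3 libraries cannot go below p = 0.25. The members and gene lists were chosen with earlier results of these data known. Coding lengths for genes with an intron and the merging of frames with the gene they overlap by over 50% were added after the data were seen.

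Genes named are the 20 highest, the 3 highest and the lowest of a list, members at 0, the widest 10 and closest 5 pairs, families of glycolysis, chaperone, translation and histone genes, the 12 targets farthest each way in replicate 1 with up to 4 per list, the 3 farthest each way in replicates 9 and 17, and RPD3 and SWI3. Not every gene so chosen is described. The values of a ribosomal protein pair, included in the counts of pairs, are not reported here. Other ribosomal protein pairs, genes near chromosome ends, YLR302C, DID2, HMRA1 and frames were named after their values were seen. Alternatives used other pseudocounts, filters, folds, floors, scalings (TMM in edgeR 4.0.16, size factors in DESeq2 1.42.0, R 4.3.3) and libraries. Calculations used Python 3.11.15, pandas 2.3.3, numpy 2.4.6 and scipy 1.17.1. Columns not used numbered 0.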

Additional observations from a re-analysis of the deposited data

How the results depend on the processing

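No paired analysis was made because only 1 group is described. Replicate numbers differ between groups but run consecutively across them in regular blocks, with each wild type library in a different block. The labels do not say whether these blocks were batches. Taken as shares of estimated counts in place of TPM, the 10 and 100 most abundant targets held 14.8% and 38.6% and the lists moved as longer genes gained: ribosomal proteins 16.6%, glycolysis 16.2%, chaperones 6.20%, translation factors 5.22%, amino acid synthesis 2.95%, cell wall 2.68%, general stress 1.39%, trehalose and glycogen 1.37%, ion pumps 1.23%, antioxidant enzymes 0.853%, proteasome 0.756%, respiratory chain 0.630% and histones 0.332%. Over matched targets without transposon frames, the 10 and 100 most abundant held 12.1% and 42.0%, chaperones 3.53%, cell wall 3.55%, amino acid synthesis 1.92%, antioxidant enzymes 1.57%, ion pumps 1.38% and the proteasome 0.781%. With frames counted with their gene, chosen after seeing the data, the values were 11.9%, 41.7%, 3.58% for translation factors, 1.34% for ion pumps and 0.746% for the proteasome. With coding lengths, also chosen after seeing the data, ribosomal proteins held 33.2%, cell wall 2.97%, chaperones 2.95%, amino acid synthesis 1.61%, antioxidant enzymes 1.32%, ion pumps 1.20% and the proteasome 0.658%.

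Departures counted at 1.5-fold were 242 above and 257 below for replicate 1, 17 for replicate 9 and 40 for replicate 17, and at 3-fold 22, 9, 1 and 2. The few departures of replicates 9 and 17 changed with the filter, to 15 and 17 at 1 TPM, 19 and 21 with no filter, and 1 and 1 at 20 TPM, and that of replicate 17 to 8 with a pseudocount of 0.1. Leaving out 1 library gave 109 to 120 above and 54 to 90 below for replicate 1, 15 to 163 for replicate 9 and 15 to 210 for replicate 17, where the upper values are those set against replicate 1. TMM and DESeq2 scaling took the median target of replicate 1 from -0.12 to -0.02 and -0.01 on the log2 scale. Under them the medians of the cell wall, fatty acid, ion pump and iron uptake lists turned from just below 0 to just above it, and those of transposon frames stayed above.

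A floor of 10 counts gave 430 targets in place of 277. At 4-fold, 40 paralog pairs were apart. Medians near chromosome ends were 7.32 TPM for all 257 genes within 20 kb, 5.03 TPM within 10 kb, 9.95 TPM within 30 kb and 13.3 TPM with at most 5% shared words. The rank correlation with coding length was -0.25 over all matched genes above 0 and -0.40 at 10 TPM or more, where those with GC and codon use were 0.34 and 0.44. Of 200 alternative values 136 stayed near the main one and 64 moved. With 3 libraries of unknown origin, spreads may be technical.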

Other observations

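A few values were noticed after the levels were seen. Of 2 respiratory isoform pairs, the copy known to be favoured at low oxygen was the higher in every library: the cytochrome c gene CYC7 stood at 270.1, 547 and 564 TPM in replicates 1, 9 and 17 against 60.7, 93.1 and 110 TPM for CYC1, and the cytochrome oxidase subunit gene COX5B at 286, 475 and 463 TPM against 156, 238 and 259 TPM for COX5A. Neither pair shares over 5% of its words. Other genes known to be favoured at low oxygen did not share this order. ANB1 stood at 119, 166 and 158 TPM against 762, 651 and 670 TPM for HYP2, the other initiation factor 5A gene. DAN1, at a mean of 2.44 TPM, was the lowest of the cell wall list. A role of oxygen was not tested. The disaggregase gene HSP104 stood at 1974, 1840 and 1905 TPM, steady between libraries in which HSP26, a small heat shock protein gene, stood at 663, 1175 and 1504 TPM.

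Promoter words of other regulators were also counted in the window from 300 to 51 bases before the start codon, on both strands. The Gcn4 site TGACTCA occurred in 27 of 88 promoters of the amino acid synthesis list (30.7%) and in 2.38% of all 6006 promoters. The heat shock element core TTCNNGAA occurred in 22 of 52 promoters of the chaperone list (42.3%) and in 11.3% of all. The E-box CACGTG occurred in 12.5% of the amino acid synthesis list and 3.26% of all. The TATAAA element occurred in 14 of the 20 most abundant genes (70%) and in 43.1% of all. These are counts of letters, with no test.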
